A study of Mus musculus with 35 samples.

Results

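The testes of Akt1 wildtype mice exposed to PTU and of unexposed Akt1 wildtype mice were compared at postnatal day 15, on 3 arrays each, 1 mouse per array. PTU, or 6-N-propylthiouracil, is a goitrogen that blocks the making of thyroid hormone, and the series' title places the exposure in neonatal life. These 6 arrays were chosen by genotype, exposure and age as the labels give them, out of 35 arrays in all. All mice were males of the strain C57BL6. The other groups compared here are PTU-exposed and unexposed Akt1 heterozygous and homozygous mice at day 15 and PTU-exposed and unexposed wildtype mice at day 25, again with 3 arrays a group. Heterozygous and homozygous mice at day 25, exposed and unexposed, entered only the filter and the estimate of the spread at that age. They had 3 arrays a group, but 2 for exposed homozygous mice. RNA was total RNA of whole testis, read on Affymetrix MoGene 1.0 ST arrays at day 15 and on Mouse Genome 430 2.0 arrays at day 25. The PTU dose and the days of exposure are not given in the sources used here. All values below are log2 intensities, so a difference of 1 is a 2-fold change, and an error written after ± is limma's standard error of the difference.

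Thyroid hormone acts on the young testis mainly through the receptor made by Thra in Sertoli cells, the somatic cells that carry the germ cells. The hormone slows Sertoli cell division, and these cells then lower the genes of their immature state and form the blood-testis barrier. It also promotes the replacement of fetal by adult Leydig cells, which make testosterone. Germ cells pass meanwhile from spermatogonia through the long prophase of meiosis, whose pachytene stage turns on many of the genes that sperm will later use. Because whole testis was extracted, fewer cells of a type and less RNA per cell cannot be told apart in any of the values below.

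The 15 marker genes of Sertoli, Leydig, myoid, macrophage and germ cells that were looked at lay between 6.62 and 12.6 on all 6 arrays, so transcripts of each of these cell types were present. Transcripts of the epididymis, the duct attached to the testis, were uneven. Spink8 read 4.81, 5.03 and 4.86 on PTU arrays 1 to 3, against 4.97, 9.38 and 7.91 on unexposed arrays 1 to 3. Defb42 read 4.97, 5.45 and 5.45 with PTU, against 5.06, 8.62 and 6.95 unexposed. The summed level of all 36 epididymal markers was 196.7 to 201.9 on the PTU arrays and 199.5, 216.6 and 207.7 on the unexposed arrays, and 13 of them lay on every array below 5.56, the limit of the filter on low values. Unexposed arrays 2 and 3 thus carried epididymal transcripts that the other 4 arrays lacked. On homozygous PTU array 2 Spink8 read 8.74. The counts below are therefore also given without these 3 arrays, which leaves 1 unexposed wildtype array assumed to vary like the other groups. Sums of 15 fat markers were 93.3 to 94.3 with PTU and 94.2 to 96.2 unexposed, and sums of 15 blood markers 87.8 to 88.8 and 85.6 to 88.8. Labelled replicates may share a litter or a day, which the labels do not say.

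Of 16710 genes tested, 1091 rose and 1462 fell with PTU (limma, Benjamini-Hochberg adjusted p under 0.05), which is 6.53% and 8.75%, or 15.3% in both directions. The arrays of the 2 groups did not overlap for 2532 of the 2553 changed genes, and for 45.1% of all genes tested. The falls were larger than the rises: 498 genes fell and 27 rose by more than 2-fold, and 128 fell and 1 rose by more than 4-fold. The median change of all genes was 0.03. PTU array 1 lay nearest to the unexposed arrays. It was the highest of the PTU arrays for 84.8% of the genes that fell and the lowest of them for 71.6% of those that rose. Without it 2687 genes passed, against 1116 without PTU array 2, 1195 without PTU array 3 and 1182, 1990 and 1535 without unexposed arrays 1, 2 and 3. Without the arrays with epididymal transcripts 831 passed, 181 up and 650 down, of which 425 fell and 29 rose by more than 2-fold and 149 and 2 by more than 4-fold. Of the 115 changed genes named below, 68 passed with each single array left out and 57 without the arrays with epididymal transcripts.

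Genes of thyroid hormone action showed no common direction. Of 21 tested genes for transport, activation, receptors and targets of the hormone, 2 rose (9.52%) and none fell, against 6.53% and 8.75% of all genes tested. Their median change was 0.00. Besides the receptor gene Thra, the thyroid hormone transporter gene Slc16a10 rose, with 7.85, 7.94 and 7.72 on the PTU arrays and 7.33, 7.49 and 7.53 on the unexposed arrays (0.39 ± 0.10, adjusted p = 0.0122). Its groups did not overlap, and neither did those of Thra, at 10.11, 10.28 and 10.43 with PTU and 9.12, 9.33 and 9.12 unexposed. The hormone's direct targets did not pass. Klf9, a transcription factor gene, read 9.37, 8.72 and 8.99 with PTU and 9.41, 9.45 and 9.44 unexposed (-0.41 ± 0.24, 95% interval -0.92 to 0.11, adjusted p = 0.293). Every PTU array of Klf9 lay below the unexposed ones, but PTU array 1 by only a small margin. Hr, a corepressor gene, changed by -0.16 ± 0.10 (95% interval -0.38 to 0.05, adjusted p = 0.316). The second receptor gene, Thrb, did not pass either (0.05 ± 0.11). Both rises passed without the arrays with epididymal transcripts, and Thra passed with each single array left out but Slc16a10 with 4 of the 6.

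Among the steroid genes of Leydig cells, Hsd3b6 fell while Hsd17b3 and Akr1c14 rose. Hsd3b6 encodes the dehydrogenase of adult Leydig cells in the mouse. It read 8.96, 6.57 and 7.17 with PTU and 10.81, 10.88 and 10.54 unexposed, a 9.06-fold fall (-3.18 ± 0.64, adjusted p = 0.00307). Hsd17b3 encodes the enzyme that turns androstenedione into testosterone. It read 8.97, 10.05 and 9.67 with PTU and 7.63, 7.70 and 7.49 unexposed, a 3.90-fold rise (1.96 ± 0.29, adjusted p = 0.00024). All PTU arrays of both genes lay outside the range of the unexposed arrays, and PTU array 1 was the nearest to it each time. That they lay outside it follows from the rule by which the largest changes were picked. Akr1c14, a steroid reductase gene of immature Leydig cells, rose too, with 7.43, 7.86 and 7.85 under PTU and 6.96, 7.18 and 6.84 unexposed (0.72 ± 0.18, adjusted p = 0.0133). Hsd3b6 and Akr1c14 belong to families of near-identical genes that share probe sequence, so their signal may come in part from relatives. Hsd17b3 passed with each single array left out and without the arrays with epididymal transcripts. Hsd3b6 passed with each single array left out but not without those, and Akr1c14 passed with 2 of the 6 single arrays left out and not without those.

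In the list of 23 tested Leydig and steroid genes 5 rose (21.7%, against 6.53% of all genes tested) and 16 did not pass, with a median of 0.18. The 2 that fell (8.70%) are a share near the 8.75% of all genes tested. The other rises were Dlk1, a Notch-like ligand gene of fetal and progenitor cells, Thbs2, a matrix protein gene (0.86 ± 0.14, adjusted p = 0.00068), and Inhba, the activin subunit gene (0.76 ± 0.22, adjusted p = 0.0249). Agt, the angiotensinogen gene, fell (-0.54 ± 0.15, adjusted p = 0.023). The enzymes that Leydig cells of every stage use varied widely within the groups. Cyp17a1, for the step to androgens, read 10.51, 10.61 and 8.07 with PTU and 10.01, 8.40 and 8.67 unexposed, a difference of 0.71 ± 0.74 (adjusted p = 0.581). Star, which brings cholesterol into mitochondria, read 9.51, 9.02 and 7.76 with PTU and 8.57, 8.19 and 7.91 unexposed (0.54 ± 0.54, adjusted p = 0.559). Both groups of these 2 genes overlapped, and PTU array 3 was the lowest of all 6 for each. Leaving out 1 array left 3 to 6 rises and 1 or 2 falls in the list, and leaving out the arrays with epididymal transcripts left 4 rises and no fall.

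**Figure D1:**
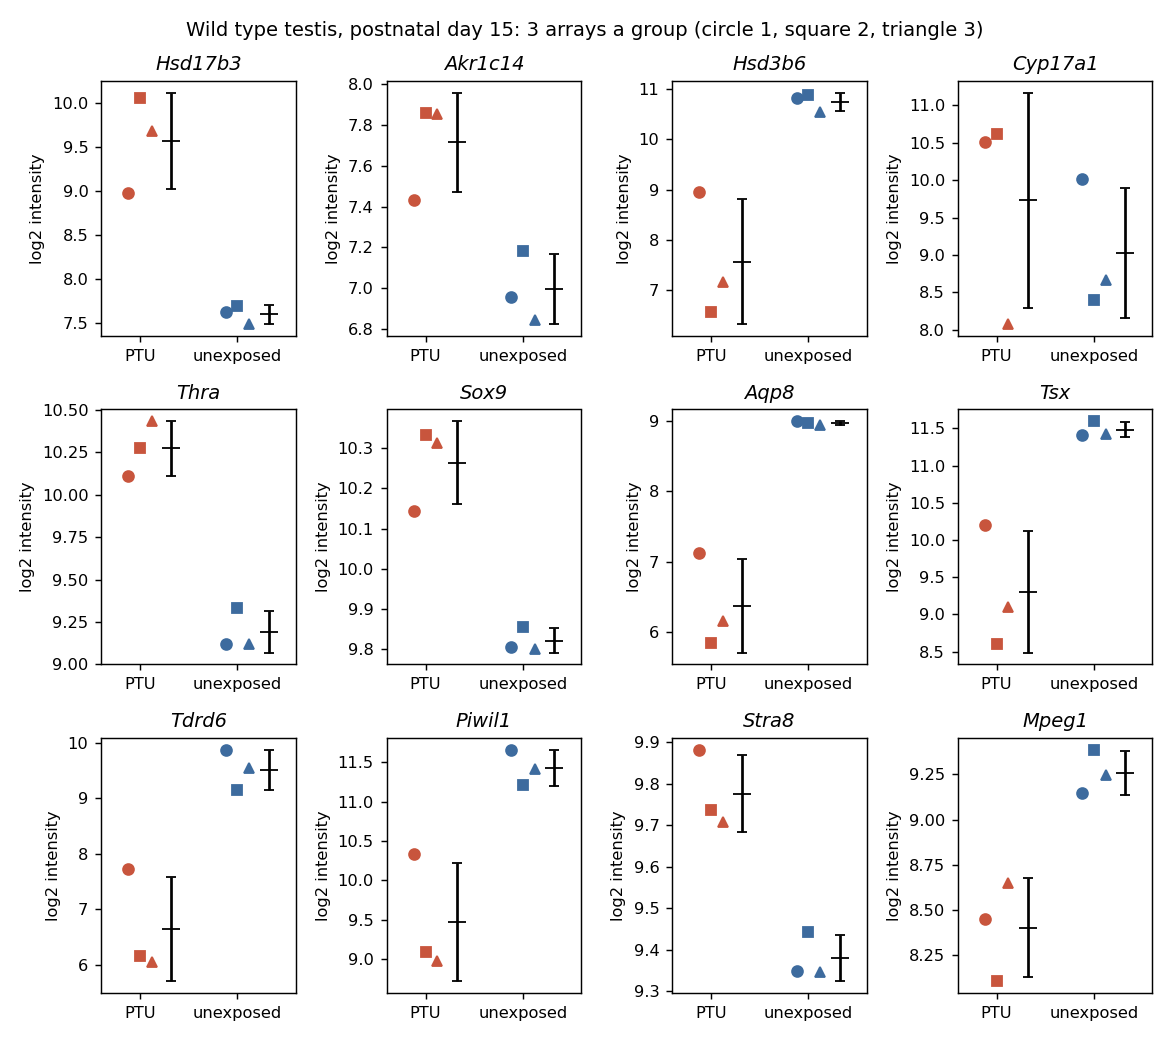
Log2 intensity of 12 genes on the 3 PTU arrays (red, left) and the 3 unexposed arrays (blue, right) of wildtype testis at day 15, with the mean and SD of each group as a black bar. Each panel has its own vertical range. The groups are apart for every gene shown except Cyp17a1, whose PTU arrays read 10.51, 10.61 and 8.07.

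Of 19 immature Sertoli genes 8 rose (42.1%, against 6.53% of all genes tested), none fell and 11 did not pass, with a median of 0.33. This list and the others were chosen with earlier results of these data known, so their shares are a description. Sox9, the transcription factor that specifies Sertoli cells, read 10.14, 10.33 and 10.31 with PTU and 9.81, 9.86 and 9.80 unexposed (0.44 ± 0.10, adjusted p = 0.00905). Gata4, which encodes a second such factor, rose as well (0.50 ± 0.14, adjusted p = 0.0265), and so did Dhh, the hedgehog signal that Sertoli cells send to their neighbours (0.40 ± 0.13, adjusted p = 0.0475), and Dmrt1 (0.45 ± 0.10, adjusted p = 0.00764), a sex-determining factor shared with spermatogonia. Fshr, the receptor gene for follicle-stimulating hormone, did not pass (0.24 ± 0.18, adjusted p = 0.412). In the hedgehog target pair Ptch1 and Gli1, which was listed with peritubular myoid cells, both genes rose (0.56 ± 0.12 and 0.33 ± 0.11, adjusted p = 0.00433 and 0.0439). The other 15 tested myoid genes did not pass. Ptch1 passed with each single array left out and Gli1 with none of them, and neither passed without the arrays with epididymal transcripts. The immature Sertoli count fell to 2 without PTU array 2, to 4 without PTU array 3 or unexposed array 1 or 3, to 5 without unexposed array 2, and to 1 without the arrays with epididymal transcripts, where the median was 0.42.

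Of 25 mature Sertoli genes 1 rose (4%) and 5 fell (20%), against 6.53% and 8.75% of all genes tested, with a median of -0.14. Aqp8, a water channel gene, read 7.12, 5.84 and 6.16 with PTU and 8.997, 8.978 and 8.944 unexposed, a 6.06-fold fall (-2.60 ± 0.22, adjusted p = 4.32e-06). Tsx, an X-linked gene of Sertoli cells, read 10.20, 8.60 and 9.10 with PTU and 11.41, 11.60 and 11.43 unexposed (-2.18 ± 0.37, adjusted p = 0.00078). The PTU arrays of both genes lay more than 1 log2 unit below every unexposed array and were more spread out. Trf, the iron carrier transferrin, fell less (-0.63 ± 0.14, adjusted p = 0.00648). The single rise was Rhox8, an X-linked homeobox gene, at 11.21, 11.40 and 11.40 with PTU and 10.71, 10.96 and 10.89 unexposed (0.49 ± 0.10, adjusted p = 0.00354). Ctsl, the protease secreted by mature Sertoli cells (-0.14 ± 0.09, adjusted p = 0.341), and Cldn11, the main claudin of the barrier (-0.11 ± 0.12, adjusted p = 0.597), did not pass. Without 1 array 4 to 8 falls passed, the 8 without PTU array 1, and 3 without the arrays with epididymal transcripts.

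Of 42 tested genes of the junctions through which Sertoli cells form the barrier 7 rose (16.7%) and 33 did not pass. Their median was 0.14, and 6.53% of all genes tested rose. The 2 that fell (4.76%) are a smaller share than the 8.75% of all genes tested. Besides the coxsackievirus and adenovirus receptor gene Cxadr, the adhesion molecule gene F11r (0.42 ± 0.11, adjusted p = 0.0178), the channel genes Gjb2 (0.60 ± 0.15, adjusted p = 0.0121) and Panx1 (0.55 ± 0.15, adjusted p = 0.0162) and the claudin gene Cldn1 (0.80 ± 0.24, adjusted p = 0.033) rose. Nectin3, through which germ cells hold on to Sertoli cells, read 9.01, 8.95 and 8.75 with PTU and 9.74, 9.48 and 9.62 unexposed and fell (-0.71 ± 0.13, adjusted p = 0.00127). Its groups did not overlap. The claudin gene Cldn3, which is not among the 115 genes counted above, fell as well (-0.57 ± 0.14, adjusted p = 0.00968). The rises numbered 1 without PTU array 3 or unexposed array 1, 2 without unexposed array 3, 3 without PTU array 2, and 1 without the arrays with epididymal transcripts.

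The germ cell lists were set in order of development. The means of the spermatogonial, meiotic entry and synapsis lists each varied by less than 0.3 over the 6 arrays, whereas the pachytene genes averaged 9.06, 8.36 and 8.31 on the PTU arrays and 10.03, 9.68 and 9.80 on the unexposed arrays. The groups did not overlap for the pachytene or the spermatid list, whose means were 6.61, 6.53 and 6.51 with PTU and 7.0004, 6.82 and 6.88 unexposed.

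**Figure D2:**
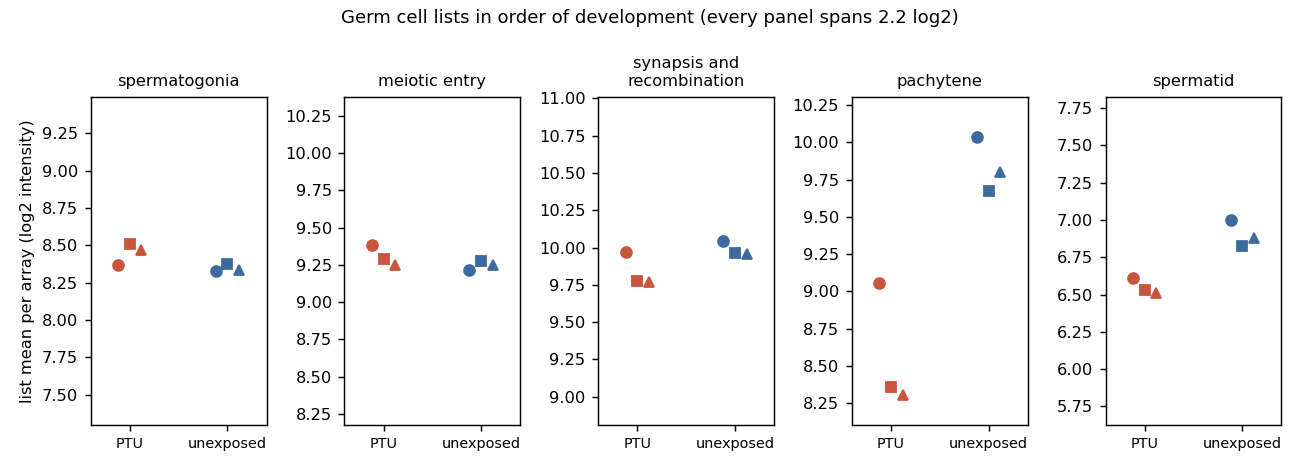
Mean log2 intensity of the tested members of 5 germ cell lists on each PTU array (red, left) and each unexposed array (blue, right), from spermatogonia to spermatids. Every panel spans the same range. The pachytene means are 9.06, 8.36 and 8.31 with PTU and 10.03, 9.68 and 9.80 unexposed.

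Among 32 spermatogonial genes 6 rose (18.8%), 2 fell (6.25%) and 24 did not pass, with a median of 0.16. Over all genes tested 6.53% rose and 8.75% fell, so the share of falls was the smaller here. Gfra1, the receptor subunit gene for the stem cell factor GDNF, read 7.88, 8.23 and 8.08 with PTU and 7.62, 7.59 and 7.40 unexposed and rose (0.53 ± 0.14, adjusted p = 0.0152), and its partner Ret rose as well (0.46 ± 0.15, adjusted p = 0.0486). The cyclin gene Ccnd1 rose (0.44 ± 0.11, adjusted p = 0.0108). Id4, an inhibitor of differentiation found in stem cells and in later germ cells, fell, with 10.24, 9.59 and 9.48 under PTU and 11.07, 10.95 and 10.95 unexposed (-1.22 ± 0.30, adjusted p = 0.0119). The stem cell factor gene Etv5 fell too (-0.50 ± 0.12, adjusted p = 0.00824). The rises numbered 1 without PTU array 2, 2 without PTU array 3 or unexposed array 1 or 3, and 8 without PTU array 1. None of these genes passed without the arrays with epididymal transcripts.

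In the list for retinoic acid, the signal that starts meiosis, 3 of 19 genes rose (15.8%) and 1 fell (5.26%), with a median of 0.13. Of all genes tested 6.53% rose and 8.75% fell. Stra8, the gene that retinoic acid turns on at meiotic entry, read 9.88, 9.74 and 9.71 with PTU and 9.35, 9.44 and 9.35 unexposed (0.40 ± 0.11, adjusted p = 0.0209). The groups did not overlap. Rdh10, for an enzyme that makes retinal (0.50 ± 0.11, adjusted p = 0.005), and Stra6, for a retinol importer (0.56 ± 0.17, adjusted p = 0.0324), rose, and Lrat, whose enzyme stores retinol as ester, fell (-0.92 ± 0.27, adjusted p = 0.029). The rises numbered 1 without PTU array 2 or unexposed array 1 or 3, and none passed without the arrays with epididymal transcripts.

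Genes of synapsis and recombination mostly did not pass. Of 38 tested, none rose and 4 fell (10.5%), with a median of -0.10. This share of falls is near the 8.75% of all genes tested, of which 6.53% rose. That none rose depends on the fit: 3 rose and 2 fell with quantile normalization, 7 and 11 with the compared groups alone, 9 and 15 with array weights, 1 and 6 with the replicate block and 4 and 5 with the array set as a block, a split of the arrays made after their values had been seen. Sycp3, of the axis of meiotic chromosomes, read 11.77, 11.57 and 11.62 with PTU and 11.74, 11.47 and 11.31 unexposed, and its groups overlapped (0.15 ± 0.19, 95% interval -0.24 to 0.54, adjusted p = 0.654). Syce1, of the central element that joins paired chromosomes, fell (-0.86 ± 0.15, adjusted p = 0.00102), and so did Mlh3, for crossover resolution (-0.55 ± 0.14, adjusted p = 0.0164), Psmc3ip, a partner of the strand exchange enzymes (-0.84 ± 0.26, adjusted p = 0.0374), and Majin, which anchors telomeres to the nuclear envelope (-0.69 ± 0.21, adjusted p = 0.0386). The falls numbered 1 without PTU array 2 or 3 or unexposed array 1 or 3, 2 without unexposed array 2 and 5 without PTU array 1, and 1 without the arrays with epididymal transcripts.

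The pachytene list had the lowest median of the lists, at -1.19. Of its 55 tested genes 36 fell (65.5%, against 8.75% of all genes tested), 1 rose and 18 did not pass. Tcp11, a gene of sperm motility, read 8.72, 7.70 and 7.62 with PTU and 10.60, 9.92 and 10.28 unexposed (-2.26 ± 0.34, adjusted p = 0.00036). Acr, the acrosomal protease gene (-2.03 ± 0.35, adjusted p = 0.00101), its partner Acrbp (-1.28 ± 0.17, adjusted p = 0.00013) and Spink2, a protease inhibitor gene of the acrosome (-3.09 ± 0.47, adjusted p = 0.00038), fell as well. Tekt2, for a flagellar filament protein, read 6.99, 6.69 and 6.61 with PTU and 8.17, 7.66 and 7.78 unexposed (-1.11 ± 0.13, adjusted p = 3.74e-05). The RNA-binding gene Ybx3 fell from among the brightest members, with 10.28, 9.87 and 9.79 under PTU and 11.55, 11.32 and 11.29 unexposed. In each of these genes PTU array 1 stood between the other PTU arrays and the unexposed arrays. The rise was Taf7l, an X-linked transcription factor subunit gene, at 11.49, 11.52 and 11.57 with PTU and 10.998, 11.20 and 10.96 unexposed (0.48 ± 0.09, adjusted p = 0.00235). Without PTU array 1, 2 or 3 the falls numbered 40, 20 and 22, without unexposed array 1, 2 or 3 they numbered 22, 29 and 29, and without the arrays with epididymal transcripts 18 fell and the median was -1.39.

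Round spermatids have barely formed at this age, and 12 of the 38 spermatid genes on the array did not pass the filter on low values. Of the 26 tested, 7 fell (26.9%, against 8.75% of all genes tested) and none rose, with a median of -0.09. Among those that fell was Odf2, of the sperm tail's outer fibres, which read 9.98, 9.64 and 9.64 with PTU and 10.84, 10.56 and 10.74 unexposed (-0.96 ± 0.16, adjusted p = 0.0007). Another was Dpy19l2, needed to attach the acrosome (-2.38 ± 0.43, adjusted p = 0.00134). Tnp1, a transition protein gene of late spermatids, read 5.44, 5.53 and 5.40 with PTU and 5.30, 5.33 and 5.05 unexposed, all below the filter's 5.56 (0.23 ± 0.13, adjusted p = 0.257). The falls numbered 3 without unexposed array 1, 4 without PTU array 2 or 3 or unexposed array 3, and 4 without the arrays with epididymal transcripts.

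Transposon silencing genes, which make and use germ cell small RNAs, fell in 10 of 24 cases (41.7%) and rose in 1. Their median was -0.44, and 8.75% of all genes tested fell. Tdrd6, a scaffold of the chromatoid body, read 7.72, 6.15 and 6.04 with PTU and 9.86, 9.14 and 9.54 unexposed, a 7.35-fold fall (-2.88 ± 0.46, adjusted p = 0.00051). Piwil1, the Piwi protein gene of pachytene cells, read 10.34, 9.10 and 8.98 with PTU and 11.66, 11.21 and 11.42 unexposed (-1.95 ± 0.57, adjusted p = 0.0292). The PTU arrays lay below all unexposed arrays for both. Members that act from earlier stages fell less, among them Mael (-0.52 ± 0.12, adjusted p = 0.00764) and Tdrd1 (-0.97 ± 0.23, adjusted p = 0.00862), and the rise was Dnmt3a, a DNA methyltransferase gene (0.38 ± 0.10, adjusted p = 0.0189). The falls numbered 4 without PTU array 3 or unexposed array 1 or without the arrays with epididymal transcripts, and 6 without PTU array 2 or unexposed array 3.

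**Figure D3:**
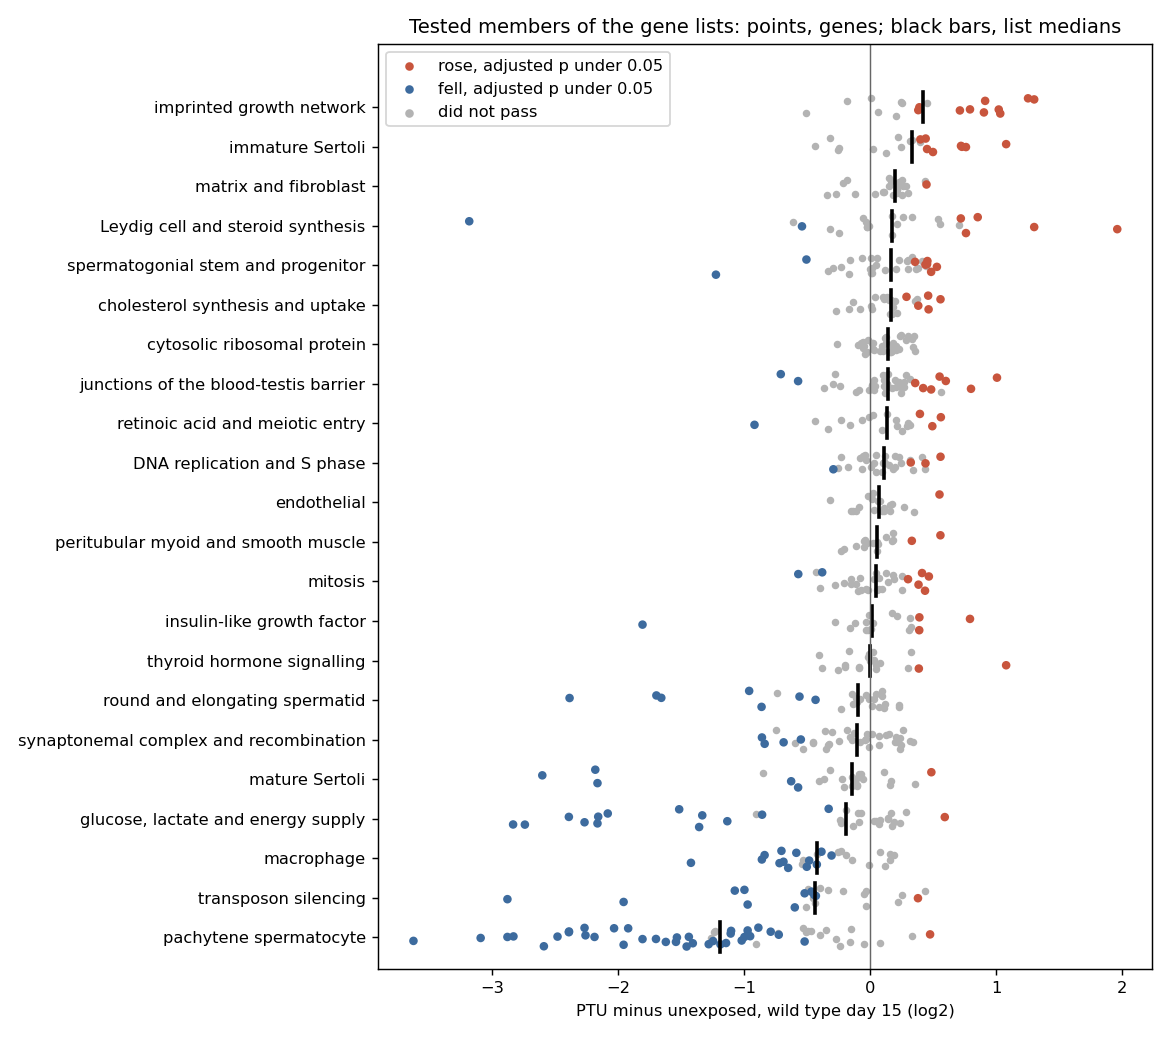
Change with PTU (log2, PTU minus unexposed) of every tested member of 22 gene lists, ordered by list median (black bars). Red points rose, blue points fell and grey points did not pass. The pachytene list lies lowest, with a median of -1.19 and 36 of 55 members fallen. The imprinted list lies highest, with a median of 0.42, but it was put together after values in these data had been seen.

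The pachytene programme is driven in part by MYBL1, a transcription factor that binds MYB words in promoters. Mybl1 itself read 10.01, 9.64 and 9.49 with PTU and 10.58, 10.38 and 10.38 unexposed and did not pass (-0.73 ± 0.25, adjusted p = 0.0561). The words were taken as TAACTG and its close variant TAACGG, or either with C as its first letter (CAACTG or else CAACGG), on either strand. They were looked for in the 250 bases before the start of each gene in RefSeq's promoters. They occurred in 38 of the 105 matched promoters of genes that fell over 4-fold (36.2%), in 10 of 28 of the pachytene genes that fell (35.7%), in 21.3% of 13150 promoters of tested genes and in 23.7% of all 27025 promoters. The half-site TGACG of cyclic AMP response elements, on either strand, occurred in 15.2%, 32.1%, 24.3% and 17.9% of the same promoters. These shares are a description and locate no binding. Promoters of 2 of the genes with the largest falls are shown, 1 with a MYB word (in capitals) and 1 with neither motif. Slc9c1, the sperm sodium and proton exchanger gene, read 6.38, 4.90 and 5.02 with PTU and 8.91, 8.13 and 8.63 unexposed (-3.13 ± 0.44, adjusted p = 0.00018). Cmtm2b, a membrane protein gene of the testis, read 6.25, 5.75 and 5.73 with PTU and 9.90, 9.11 and 9.36 unexposed, an 11.7-fold fall (-3.55 ± 0.31, adjusted p = 4.41e-06). The sequences run 5′ to 3′ on the gene's strand, in GRCm38.p6, at chr16:45535016-45535265 (plus strand) for Slc9c1 and chr8:104321977-104322226 (plus strand) for Cmtm2b.
Slc9c1: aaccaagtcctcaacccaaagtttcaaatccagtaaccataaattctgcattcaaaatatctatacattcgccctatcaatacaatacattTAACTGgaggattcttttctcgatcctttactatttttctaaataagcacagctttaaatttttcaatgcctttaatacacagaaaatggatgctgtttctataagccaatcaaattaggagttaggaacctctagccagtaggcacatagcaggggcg
Cmtm2b: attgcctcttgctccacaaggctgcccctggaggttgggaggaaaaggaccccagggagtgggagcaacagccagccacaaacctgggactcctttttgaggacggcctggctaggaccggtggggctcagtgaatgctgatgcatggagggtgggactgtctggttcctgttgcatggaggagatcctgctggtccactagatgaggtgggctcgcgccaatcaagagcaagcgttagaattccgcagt

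Of 33 tested genes that supply energy through glucose, lactate, fructose and carnitine use, 13 fell (39.4%, against 8.75% of all genes tested), 1 rose and 19 did not pass, with a median of -0.19. The germ cells' glucose transporter gene Slc2a3 read 11.46, 10.24 and 9.98 with PTU and 12.89, 12.40 and 12.63 unexposed (-2.08 ± 0.46, adjusted p = 0.00606). The glycolytic gene Pgam2 read 7.71, 6.76 and 6.50 with PTU and 10.26, 9.50 and 9.71 unexposed, a 7.12-fold fall (-2.83 ± 0.37, adjusted p = 9.58e-05). The PTU arrays of both lay below every unexposed array. Both lactate dehydrogenase genes fell, the general Ldha (-1.33 ± 0.18, adjusted p = 0.0001) and the germ cell form Ldhc (-2.39 ± 0.70, adjusted p = 0.0292). Slc16a7, a transporter gene for lactate and pyruvate uptake, fell by 1.51 ± 0.21 (adjusted p = 0.00014), as did Emb and Bsg, chaperones of such transporters (-2.16 ± 0.32 and -0.33 ± 0.09, adjusted p = 0.00028 and 0.0272). The single rise was Slc16a3, the lactate exporter gene, between 9.82 and 10.10 with PTU and between 9.35 and 9.40 unexposed (0.59 ± 0.12, adjusted p = 0.00305). Bbox1, for the last step of carnitine synthesis, fell, with 7.72, 5.37 and 5.87 under PTU and 9.07, 9.16 and 8.94 unexposed (-2.74 ± 0.42, adjusted p = 0.00038). Its PTU arrays spread over more than 2 log2 units, while its unexposed arrays lay close together. Of this list 11 to 13 falls passed without any 1 array and 10 without the arrays with epididymal transcripts, where no rise passed.

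Of 26 tested macrophage genes 13 fell (50%, against 8.75% of all genes tested), none rose and 13 did not pass, with a median of -0.42. Mpeg1, a pore-forming defence protein gene, read 8.45, 8.11 and 8.65 with PTU and 9.15, 9.39 and 9.25 unexposed (-0.86 ± 0.20, adjusted p = 0.00824). The scavenger receptor gene Cd163 (-0.50 ± 0.08, adjusted p = 0.0006), whose PTU arrays all lay below the filter's 5.56, and the complement gene C1qa (-0.72 ± 0.21, adjusted p = 0.0295) fell, as did the growth factor receptor gene Csf1r (-0.48 ± 0.11, adjusted p = 0.00587). Adgre1, the F4/80 antigen, read 6.90, 6.62 and 6.83 with PTU and 6.87, 7.33 and 6.85 unexposed, and its groups overlapped. The list means were highest on unexposed arrays 2 and 3, the arrays with epididymal transcripts, at 7.67 and 7.51, against 7.45 on unexposed array 1 and 7.22, 7.10 and 7.12 with PTU. When those arrays were left out, 2 of the 13 falls passed and the median was -0.25. The count was 5 without PTU array 2, 6 without PTU array 3, 7 without unexposed array 2 or 3 and 9 without unexposed array 1. The part of the epididymal transcripts in these falls was not tested.

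Few genes of growth signalling passed outside an imprinted group. Akt1, the gene that the study mutates and that is intact here, read 9.92, 9.95 and 10.09 with PTU and 9.34, 9.48 and 9.71 unexposed. Its groups did not overlap, but it did not pass (0.48 ± 0.22, adjusted p = 0.149). Of 22 tested genes of the Akt and PI3K core 2 rose (9.09%) and 1 fell (4.55%), with a median of 0.09. The transcription factor gene Foxo1 (0.36 ± 0.10, adjusted p = 0.0181) and the Akt phosphatase gene Phlpp1 (0.37 ± 0.11, adjusted p = 0.0272) rose. Inpp5d, a lipid phosphatase gene of blood cells, fell (-0.59 ± 0.14, adjusted p = 0.00803). None of these 3 passed without PTU array 2 or without unexposed array 1. Of 18 insulin-like growth factor genes 3 rose (16.7%) and 1 fell (5.56%), with a median of 0.02. Over all genes tested the shares were 6.53% and 8.75%. Igf2 read 8.93, 9.67 and 9.37 with PTU and 8.44, 8.50 and 8.63 unexposed (0.79 ± 0.18, adjusted p = 0.00816), and the gene for its scavenging receptor, Igf2r, rose as well (0.39 ± 0.10, adjusted p = 0.0116). No rise of this list passed without PTU array 2 or without the arrays with epididymal transcripts.

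Igf2, Igf2r and Dlk1 are imprinted, that is, read from the copy of 1 parent, and they belong to a set of imprinted genes that are high in fetal tissue and lowered together after birth. This set was put together after values in these data had been seen, and its count is a description. Of 18 tested members 10 rose (55.6%, against 6.53% of all genes tested) and none fell, with a median of 0.42. Zim1, a zinc finger gene, read 8.05, 8.30 and 8.14 with PTU and 6.86, 6.90 and 6.96 unexposed (1.25 ± 0.16, adjusted p = 6.62e-05). Plagl1, a zinc finger factor gene of the set, read 8.55, 9.21 and 8.88 with PTU and 7.85, 8.10 and 7.62 unexposed (1.02 ± 0.22, adjusted p = 0.00492). Neither gene's groups overlapped, which for Zim1 follows from the rule by which the 15 largest rises were picked. The non-coding RNA genes Meg3 (1.03 ± 0.25, adjusted p = 0.00967) and Rian (0.90 ± 0.18, adjusted p = 0.00313, with all unexposed arrays below 5.56) rose, as did Mest (0.91 ± 0.25, adjusted p = 0.0214) and Ndn (0.71 ± 0.15, adjusted p = 0.0048). Peg10 read 10.61, 10.001 and 10.14 with PTU and 10.71, 10.85 and 10.71 unexposed and did not pass (-0.51 ± 0.19, adjusted p = 0.0781). The rises numbered 5 to 11 without 1 array, the 5 without PTU array 2 and 6 without unexposed array 1, and 5 without the arrays with epididymal transcripts.

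Lists for cell division and lipid supply held a few modest rises. Of all genes tested 6.53% rose and 8.75% fell. Of 31 replication genes 3 rose (9.68%) and 1 fell (3.23%), with a median of 0.11. Of 31 mitotic genes 5 rose (16.1%) and 2 fell (6.45%), with a median of 0.05. Tyms, for thymidylate synthesis (0.56 ± 0.14, adjusted p = 0.0139), and the mitotic kinase gene Aurkb (0.47 ± 0.12, adjusted p = 0.0126) rose, and Ccnb2, a cyclin gene also used in meiosis, fell (-0.57 ± 0.14, adjusted p = 0.0136). Of 24 genes for cholesterol synthesis and uptake 5 rose (20.8%) and none fell (median 0.16). Among the rises was Srebf2, the factor that turns the pathway on, at 9.97, 10.11 and 10.04 with PTU and 9.37, 9.53 and 9.53 unexposed (0.56 ± 0.14, adjusted p = 0.011). No gene of these 3 lists passed without PTU array 2, without unexposed array 1, or without the arrays with epididymal transcripts. Of 38 ribosomal protein genes none passed (median 0.14), but 1 rose with quantile normalization and 8 rose and 1 fell with the compared groups alone. Of 20 endothelial genes 1 rose (5%), Cdh5, the vascular cadherin (0.55 ± 0.13, adjusted p = 0.0081). Of 24 matrix genes 1 rose (4.17%), Fn1 (0.44 ± 0.11, adjusted p = 0.011). Of 22 immediate early and heat shock genes 3 rose (13.6%) and 1 fell (4.55%). Without the arrays with epididymal transcripts 1 gene of each of these last 3 lists rose and none fell, and with single arrays left out 1 to 2 endothelial, 0 to 2 matrix and 0 to 4 immediate early and heat shock genes rose.

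X-linked genes rose more often than those of any autosome. Of 559 tested genes on the X chromosome 114 rose (20.4%) and 16 fell (2.86%), with a median of 0.22. On single autosomes 4.40% to 8.58% of genes rose and 7.46% to 10.6% fell, with medians of 0.01 to 0.05. X-linked genes made up 10.4% of all rises and 3.35% of the genes tested. Their mean was 8.23, 8.28 and 8.24 on the PTU arrays and 8.02, 8.13 and 8.05 on the unexposed arrays, without overlap. The X chromosome is silenced in pachytene spermatocytes and read in spermatogonia and somatic cells. The following X-linked genes were picked after their values had been seen. Gpc3, a membrane proteoglycan gene, read 8.73, 9.19 and 9.15 with PTU and 7.91, 8.25 and 7.96 unexposed (0.98 ± 0.18, adjusted p = 0.0015), and Nexmif, a neuronal nuclear factor gene, read 7.90, 8.34 and 8.21 with PTU and 7.09, 7.13 and 7.02 unexposed (1.07 ± 0.16, adjusted p = 0.0004). Among the 16 falls were Tsx, Dmrtc1b, a relative of Dmrt1 (-2.05 ± 0.29), and Trpc5os, an antisense transcript gene at 5.86, 4.78 and 4.95 with PTU and 8.13, 8.43 and 8.30 unexposed. The X-linked rises numbered 35 without PTU array 2, 39 without PTU array 3, 40 without unexposed array 1, 48 without unexposed array 3 and 16 without the arrays with epididymal transcripts, where 5 fell and the median was 0.27.

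**Figure D4:**
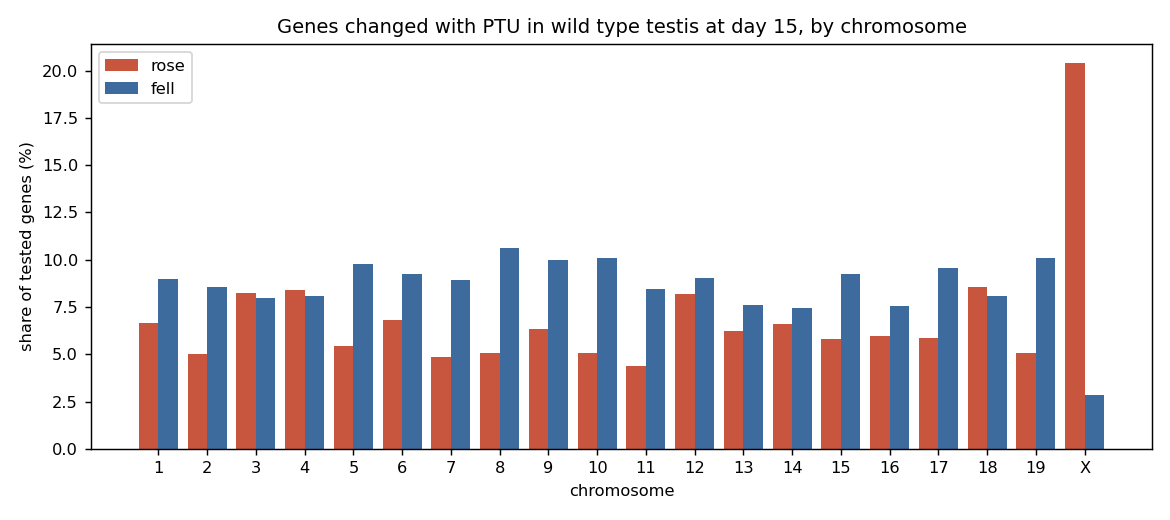
Share of tested genes that rose (red) and fell (blue) with PTU in wildtype testis at day 15, for autosomes 1 to 19 and the X chromosome. The X chromosome shows 20.4% risen and 2.86% fallen, while autosomes range from 4.40% to 8.58% risen and 7.46% to 10.6% fallen.

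A pair of microRNA genes stood among the 15 largest rises. Of 160 microRNA genes tested 8 rose and 2 fell, which are smaller shares than the 6.53% and 8.75% of all genes tested. These probe sets read RNA of the locus, that is, the precursor or a host transcript, and not the mature microRNA. Mir196a-1, which lies in the Hoxb cluster, read 6.99, 7.47 and 7.43 with PTU and 5.14, 5.40 and 5.42 unexposed (1.98 ± 0.23, adjusted p = 3.20e-05). Its unexposed arrays all lay below the filter's 5.56, and against that limit the rise was at least 3.33-fold. Mir202, a microRNA gene of the gonads, read 7.51, 8.79 and 8.38 with PTU and 6.68, 7.24 and 6.97 unexposed (1.26 ± 0.35, adjusted p = 0.0208). That neither gene's groups overlapped follows from the rule by which the 15 largest rises were picked. Mir196a-1 passed with each single array left out and without the arrays with epididymal transcripts, whereas Mir202 passed with 2 of the 6 single arrays left out and not without those. The mature sequences of both arms are shown because these are the products the loci encode. They are from RefSeq, GRCm38.p6, written 5′ to 3′ with the seed (bases 2 to 8) in capitals, and no seed is shared between them. The miR-196a-5p arm lies at chr11:96265187-96265208 on the plus strand and miR-202-3p at chr7:139957695-139957716 on the minus strand.
miR-196a-5p: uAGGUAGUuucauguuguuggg
miR-196a-1-3p: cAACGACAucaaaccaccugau
miR-202-3p: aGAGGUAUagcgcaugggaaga
miR-202-5p: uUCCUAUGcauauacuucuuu

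The largest changes over all genes were ranked next. The 15 largest falls, among genes whose groups did not overlap, ran from Adam3 to Slc6a21 (-3.02 ± 0.26), with the next gene at -2.99. They included Ccdc38, a coiled-coil gene, at 5.76, 4.95 and 4.54 with PTU and 8.98, 8.16 and 8.49 unexposed (-3.46 ± 0.33, adjusted p = 6.28e-06), the sperm membrane gene Adam5 (-3.28 ± 0.74, adjusted p = 0.0066), the organic anion transporter gene Slco6c1 (-3.25 ± 0.47), the phospholipid enzyme gene Plaat5 (-3.25 ± 0.43), the poly(A) binding gene Pabpc2 (-3.22 ± 0.49), 1700074P13Rik (-3.27 ± 0.53), Ms4a20 (-3.16 ± 0.43) and Stpg4 (-3.06 ± 0.50). Hsd3b6 and Trpc5os were the others not already named with a germ cell list or promoter. In 7 of the 15 falls, Ccdc38, Slc9c1, Trpc5os, Slco6c1, Slc6a21, 1700074P13Rik and Ms4a20, 2 PTU arrays lay below the filter's 5.56. Their differences and their rank are thus set by low values and are bounds, at least 7.56-fold for Ccdc38, 6.62-fold for Slc9c1 and 6.16-fold for Trpc5os with such values set to 5.56. The largest rise was Sel1l3, a membrane protein gene, at 8.50, 9.12 and 9.10 with PTU and 6.48, 6.93 and 6.91 unexposed, or 4.39-fold (2.13 ± 0.25, adjusted p = 3.93e-05). The 15 largest rises ended at 1.14, with the next gene at 1.08. They also held Bex2, an X-linked adaptor gene with a near-identical copy (1.46 ± 0.26), the lipid enzyme gene Lpcat2 (1.45 ± 0.38), the protocadherin gene Pcdh18 (1.39 ± 0.17), the matrix gene Bcan (1.35 ± 0.30) and Socs2, an inhibitor gene of growth hormone signalling (1.23 ± 0.22), with BC034090, Nynrin, Gpx8 and Clca3a2 between 1.14 and 1.23.

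The effects of PTU in the other genotypes rest on other arrays and can be set against those in wildtype mice. In Akt1 homozygous mice 98 genes rose (0.586%) and 730 fell (4.37%), or 4.96% in both directions. In heterozygous mice 32 rose (0.192%) and 63 fell (0.377%), or 0.569%. Without the arrays with epididymal transcripts, which leave 2 homozygous PTU arrays, no gene passed in homozygous mice (limma, 2270 at unadjusted p under 0.05) and 48 did in heterozygous mice. The test of the difference itself called 2734 genes (16.4%) for homozygous minus wildtype and 75 (0.449%) for heterozygous minus wildtype, where 74 were higher (0.443%) and 1 lower (0.00598%) in heterozygous mice. These counts were 1026 and 64 without the arrays with epididymal transcripts. A split of the day 15 arrays into 2 sets, made after their values had been seen, was uneven over the groups. All wildtype arrays lay in set 1. Set 2 held homozygous PTU arrays 2 and 3 and unexposed array 3, and heterozygous PTU array 3 and unexposed arrays 2 and 3. With the set as a block 3292 genes differed for homozygous and 60 for heterozygous minus wildtype. Of the 30 genes with the largest changes in wildtype mice, 24 differed in the homozygous and 4 in the heterozygous comparison, though these genes were picked by the wildtype values that both differences use. The pachytene list had a median of -1.19 in wildtype, -0.45 in heterozygous and 0.56 in homozygous mice, and 41 of its 55 genes had a higher effect in homozygous than in wildtype mice by the test of the difference. Its array means in homozygous mice were 8.91, 8.58 and 7.98 with PTU and 7.52, 7.75 and 8.16 unexposed, and in heterozygous mice 8.73, 7.96 and 8.89 with PTU and 9.17, 8.71 and 9.08 unexposed. The unexposed wildtype arrays, at 10.03, 9.68 and 9.80, thus lay above every other array of that age in this list. For the immature Sertoli list the medians were 0.33, 0.19 and -0.11 in wildtype, heterozygous and homozygous mice, for the mature Sertoli list -0.14, -0.23 and -0.53 (5, 5 and 15 falls), for the X chromosome 0.22, 0.09 and -0.13, and for the imprinted set 0.42, 0.38 and -0.09. The macrophage list was lower in all, at -0.42, -0.57 and -0.28.

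Calls shared between genotypes were few. Of the wildtype calls 70 (2.74%) were also made in the same direction in heterozygous mice, which is 73.7% of the heterozygous calls, and none in the opposite direction. With homozygous mice 83 were shared in direction (3.25% of the wildtype and 10.02% of the homozygous calls) and 57 were opposite (2.23% and 6.88%). In all 3 genotypes 28 genes passed in 1 direction. Without the arrays with epididymal transcripts 26 calls were shared with heterozygous mice and none with homozygous mice, where none were made. Hsd17b3 and Akr1c14 rose in all 3, by 1.96, 1.71 and 1.53 and by 0.72, 1.20 and 0.88 in wildtype, heterozygous and homozygous mice. The other 26 fell, among them Tsx (-2.18, -2.07 and -1.81), Emb (-2.16, -1.63 and -1.64) and the macrophage genes Cd68 and Fcer1g. The others named here were picked after their values had been seen: Corin, a protease gene (-1.52, -1.39 and -0.94), Slc9a2, a sodium and proton exchanger gene (-1.67, -1.33 and -0.997), Dmrtc1b (-2.05, -1.45 and -1.66) and Timp2, a protease inhibitor gene (-0.60, -0.69 and -0.93). Of the 28 only Trpc5os (-3.08, -2.24 and -1.24) differed between homozygous and wildtype mice. Hsd3b6 changed by -3.18, -2.87 and -2.47 and passed in wildtype and homozygous mice.

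**Figure D5:**
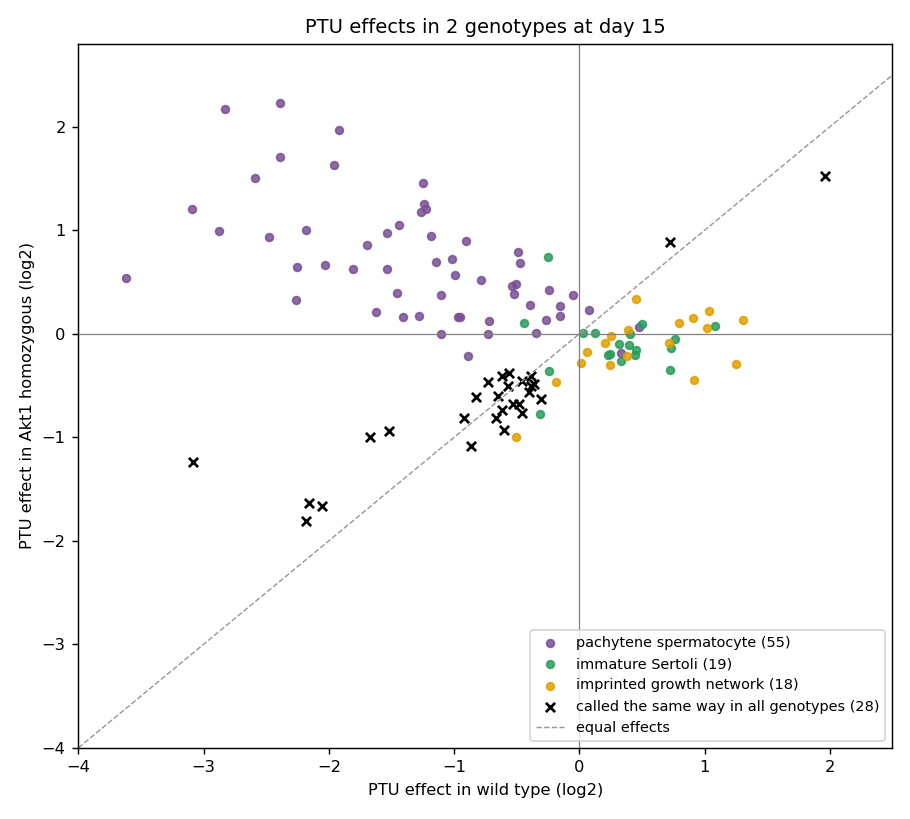
Change with PTU (log2) in wildtype testis (horizontal axis) against that in Akt1 homozygous testis (vertical axis) at day 15 for tested genes of 3 lists and for the 28 genes called in the same direction in all 3 genotypes (crosses). The dashed line marks equal effects. Most pachytene genes lie at left and above 0, with medians of -1.19 in wildtype and 0.56 in homozygous mice, and the crosses lie in the lower left and upper right.

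At day 25, on another array type, no gene passed for PTU in wildtype testis (limma, 978 genes at unadjusted p under 0.05, 1 gene with a fit on the compared groups alone and 6 with array weights). Of 2314 genes that changed at day 15 and had a value at day 25, 1441 (62.3%) had the same sign there. Of the 30 largest, 24 had a value, and these lay between -0.83 and 0.48. The lowest was Hsd17b3, the gene that rose by 1.96 at day 15 (-0.83 ± 0.45, adjusted p = 0.861). Aqp8 stood at -0.50 ± 0.22 (adjusted p = 0.794) and Pgam2 at -0.21 ± 0.26 (adjusted p = 0.981). The pachytene list had a median of 0.01 at day 25 and the macrophage list -0.14. Of the 28 genes called in all genotypes at day 15, 26 had a value at day 25 and 22 of these had the same sign. Whether day 15 and day 25 effects differ was not tested, since the ages were read on different arrays.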

How the data were processed

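Whole testis RNA of 35 mice was read on Affymetrix arrays, 18 at day 15 and 17 at day 25. Another exposed homozygous array of day 25, left out by the authors per the design text, is not analysed here. The authors deposited log2 intensities made with RMA, per the submitters' processing notes; the notes state no version of it. Values at day 15 run from 2.19 to 14.9, with array medians of 7.02 to 7.12. The number of arrays, 3 a group, limits the precision.

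Probe sets were named by the platform annotation. A single symbol belonged to 21789 of the 35556 day 15 probe sets, more than 1 to 1621 and none to 12146; 21698 of the first kind matched a RefSeq gene ID. Each gene was represented by its brightest probe set. A gene was tested if it passed the 25th percentile (5.56) in at least 2 arrays, as 16710 of 19938 did (at day 25, 16305 of 18194). Limma 3.58.1 in R 4.3.3 was fitted on the 6 group means of each age (lmFit, contrasts.fit, eBayes), with Benjamini-Hochberg adjustment and a threshold of 0.05, and tested on simulated data. The labels number the samples but do not say whether same-numbered arrays are paired. Residuals of same-numbered heterozygous arrays at day 15 correlate at 0.391 to 0.444. Those of same-numbered wildtype arrays correlate at 0.036 to 0.275 at day 15 and at 0.233 to 0.396 at day 25.

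Members and lists were chosen with earlier results of these data known. Genes are named by rule: Akt1, the 15 largest rises and falls whose groups do not overlap, list members and the 5 smallest p of each test of a difference; others are said to be picked later. Alternatives were no filter, the 50th percentile, quantile normalization, the compared groups alone, array weights, a replicate block, each array left out, no arrays with Spink8 above 7 (unexposed wildtype 2 and 3, PTU homozygous 2), every probe set and, added later, the array set as a block and the block and Spink8 alternatives in the other genotypes.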

Additional observations from a re-analysis of the deposited data

Results flagged for a closer look

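The effect of PTU at day 15 differed between genotypes by the test of the difference itself, for 2734 genes in homozygous minus wildtype mice and for 75 genes in heterozygous minus wildtype mice (limma, adjusted p under 0.05). The genes with the smallest p in the homozygous comparison were Abca14 (2.56), CK137956 (2.66), Ccdc110 (2.30), Pxt1 (1.42) and 1700018B08Rik (1.53), and in the heterozygous comparison Abca14 (1.92), CK137956 (2.10), Ccdc110 (1.70), Slc6a21 (2.62) and Hyal6 (2.40). All values are differences of PTU effects in log2, positive where the effect is higher in the mutant. Of these genes only Slc6a21 is among the 115 changed genes counted above. Abca14, a transporter gene, read 5.67, 5.47 and 5.25 on the PTU arrays and 7.73, 7.40 and 7.54 on the unexposed arrays of wildtype mice, while its group means in homozygous mice were 5.81 with PTU and 5.35 unexposed. The last value is below the 5.56 of the filter on low values, so a fall in homozygous mice could not have been read there, and the difference of 2.56 largely restates the wildtype fall. In Hyal6 both homozygous means were below it too, at 5.22 and 5.02.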

How the results depend on the processing

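For PTU in wildtype mice at day 15, 2553 genes passed in the fit reported. The count was 2314 to 3460 with no filter, a 50th percentile filter, quantile normalization, every probe set, the array set as a block (chosen after seeing the data) and the replicate block (3061), but 4370 with the compared groups alone, 6820 with array weights, 831 without the arrays with Spink8 and 1116 to 2687 with each array left out. For homozygous minus wildtype it was 2734, 4904 with array weights, 1026 without the arrays with Spink8 and 1563 to 3130 with each array left out. For heterozygous minus wildtype it was 75, 46 with quantile normalization, 31 with the compared groups alone, 652 with array weights, 130 with the replicate block and 22 to 150 with each array left out. At day 25 it was 0, 1 with the compared groups alone and 6 with array weights. The replicate block there also gave 0. Residuals of same-numbered arrays correlated there at 0.233 to 0.396, but no label says that these arrays are paired. For PTU in heterozygous mice it was 95, 127 with the replicate block and 48 without the arrays with Spink8, and in homozygous mice 828, 1142 with the replicate block and 0 without those arrays (both alternatives chosen after seeing the data). With quantile normalization the day 15 split was 1445 up and 1321 down, against 1091 and 1462. All wildtype arrays lay in the same array set. The array set as a block therefore left the wildtype differences as they were and changed only their errors. Same-numbered wildtype arrays at day 15 had residual correlations of 0.275, 0.036 and 0.101. Heterozygous ones correlated at 0.441, 0.444 and 0.391 and homozygous ones at -0.207, -0.250 and -0.252. Of the 115 changed genes named, 54 passed under every alternative, and none changed sign. A sign could change only with quantile normalization, array weights or arrays left out. The filters, the compared groups alone, the blocks and every probe set kept the same differences. Without the arrays with Spink8 the differences of 3 genes that had not passed turned sign: Cyp17a1 to -0.28, Defb42 to 0.23 and Sycp3 to -0.083. The cause of these shifts was not tested, though leaving out arrays also leaves fewer samples.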
